A study of Mus musculus with 10 samples.

Results

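The genes of the inhibin and activin system were followed in cultured fetal mouse testes. They were the 9 entries of the count table with the symbols Inha, Inhba, Inhbb, Fst, Fstl3, Acvr1b, Acvr2a, Acvr2b and Tgfbr3, of 24470 gene entries in all. They were chosen by name, with earlier results of these data known. All 9 passed the filter on low counts, which 13941 entries passed.

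Testes came from 5 C57BL/6 mouse embryos at E12.5, labelled M1 to M5, and went into culture with the mesonephros, the transient kidney beside the gonad, still attached. From each embryo 1 testis received 75 µM GPI (CP 316819, an inhibitor of the phosphorylases that break down stored glycogen) and its partner received the vehicle DMSO, for 48 h. The mesonephros was then cut away and bulk RNA-seq was made from each testis, so that each of the 5 vehicle and 5 GPI libraries holds RNA of every cell type in the organ. The comparison asks how the transcripts of this system differ when glycogen breakdown is blocked in the whole testis. Depth ran from 10203679 to 15635322 counts per library, with a median of 11114376 with vehicle and 11691690 with GPI. The partners of a pair came from the same embryo, so p-values reflect how the difference between partners varied from mouse to mouse.

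Inhibins and activins are secreted dimers built from shared subunits. A pair of β subunits (βA from Inhba, βB from Inhbb) forms an activin, while a β subunit joined to the α subunit from Inha forms an inhibin. Activin binds the type II receptors Acvr2a or Acvr2b, which bring in the type I receptor Acvr1b and activate SMAD2 and SMAD3; inhibin, held by the co-receptor Tgfbr3 (betaglycan), occupies the type II receptors without signalling, and follistatin (Fst) and Fstl3 trap activin outside the cell. In the fetal testis, activin A from fetal Leydig cells is known to drive Sertoli cell proliferation and the growth of testis cords, and in the fetal ovary Fst acts downstream of Wnt4 to restrain activin B.

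Single markers were read to check the tissue, and not every gene of a list separated testis from ovary. The Sertoli cell factor Sox9 stood at 99.9 ± 17.3 CPM (counts per 1000000 after TMM correction of the library sizes; SD, n = 5) with vehicle and 150 ± 19.0 CPM with GPI. Foxl2, the defining gene of pre-granulosa cells of the ovary, stood at 2.48 ± 1.34 and 1.65 ± 0.611 CPM. However, the Sertoli cell product Amh stood at only 10.4 ± 4.25 CPM with vehicle and 11.2 ± 4.42 CPM with GPI. Wnt4, of the pre-granulosa list, was higher, at 84.8 ± 13.9 and 49.7 ± 10.7 CPM. The Leydig cell hormone Insl3 gave between 0 and 7 counts per library, although the steroid enzyme Hsd3b1 of the same cells was abundant.

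Both libraries of mouse M1 stood apart from the rest. On the second principal component of the 500 most variable genes, which held 5.14% of their variance, the M1 libraries lay at 9.95 (vehicle) and 11.57 (GPI), and the other 8 lay between -5.63 and 1.30. The M1 vehicle library also held the most counts of the kidney genes Pax8 (361, against 70 to 186 in the other vehicle libraries) and Cdh16 (102, against 0 to 43). The M1 GPI library did not: it held 148 counts of Pax8 and 9 of Cdh16, and the highest among the GPI libraries was M2, with 214 and 26. Results on the 9 genes are therefore given with and without M1. The first component, with 84.0% of the variance, separated the treatments.

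The promoters of both β subunit genes are shown because their transcripts rose together while βA gained on βB. Each window is RefSeq sequence of GRCm38.p6 (mm10), read 5′ to 3′ on the strand of the gene, with the 250 bases before the RefSeq start in lower case and the 50 bases from the start in capitals. Inhba on chromosome 13 is on the plus strand (chr13:16011601-16011900), and its RefSeq start lies 2624 bp upstream of the start of the counted gene entry. Inhbb on chromosome 1 is on the minus strand (chr1:119422199-119422498), and its start is that of the counted entry.
Inhba: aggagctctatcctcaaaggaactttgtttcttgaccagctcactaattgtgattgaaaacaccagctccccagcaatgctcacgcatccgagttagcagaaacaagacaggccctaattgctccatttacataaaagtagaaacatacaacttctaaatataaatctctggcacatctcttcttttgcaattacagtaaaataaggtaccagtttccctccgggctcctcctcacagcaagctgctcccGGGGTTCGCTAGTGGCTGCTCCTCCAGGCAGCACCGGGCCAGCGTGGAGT
Inhbb: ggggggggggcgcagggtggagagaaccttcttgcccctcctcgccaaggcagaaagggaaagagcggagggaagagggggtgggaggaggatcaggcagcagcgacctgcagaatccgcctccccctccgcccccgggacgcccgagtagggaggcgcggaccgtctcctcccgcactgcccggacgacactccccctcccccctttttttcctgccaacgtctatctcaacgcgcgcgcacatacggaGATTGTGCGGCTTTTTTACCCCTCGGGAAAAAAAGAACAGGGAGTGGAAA

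The windows differ in base composition. The Inhbb window held 23 CG dinucleotides and was 64.3% G or C, and the Inhba window held 7 and was 47.7% G or C, where the median over 32851 RefSeq promoter windows was 7 CG dinucleotides. Of the 9 genes, 7 had such a window. The letters TATAAA, those of a common core promoter element, were found on the plus strand of the Inhba window at position -91 from the start, and on the opposite strand of the Fstl3 window at -29; 13.6% of all windows held them on either strand. Neither AAGGTCA, the core letters bound by NR5A1 (4.72% of all windows), nor TGACGTCA, the cAMP response element (1.79%), occurred on either strand in any of the 7 windows. A match describes the letters only, and the absence of one says only that they are not in this stretch. For Inha, the RefSeq start lies 532 bp inside the counted entry, so its window is not shown. The Inha and Inhba windows do not reach the start of the counted entry. For these genes the absence of letters says nothing about the bases at that start.

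The ligand subunits rose with GPI. All 3 subunit genes, Inha, Inhba and Inhbb, were called higher, with a fitted increase of 4.12-fold for Inhba. Of the other 6 genes, only the receptor gene Acvr2a passed the test, at 1.16-fold and close to the threshold. In all, 4 of the 9 genes were called higher and 0 lower at an adjusted p under 0.05 in edgeR's quasi-likelihood test paired by mouse, where p was adjusted by Benjamini and Hochberg's method over the whole table. Over all 13941 tested genes 22.9% were called, 11.1% higher and 11.9% lower. The median log2 fold change was 0.33 over the 9 genes and 0.02 over all tested genes. At an unadjusted p under 0.05, 1 of the 9 genes (Acvr2b) was lower, and DESeq2 and limma-voom each called 0 lower. For 4 genes (Inha, Inhba, Inhbb and Acvr1b) every GPI library lay above every vehicle library, as for 7.07% of all tested genes, and for 0 of the 9 every GPI library lay below, as for 9.05% of all tested genes. The 1544 genes called higher over the whole table became 969 without M3 and 1024 without M4, while the number of the 9 genes called higher was 3 in either case.

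**Figure D1:**
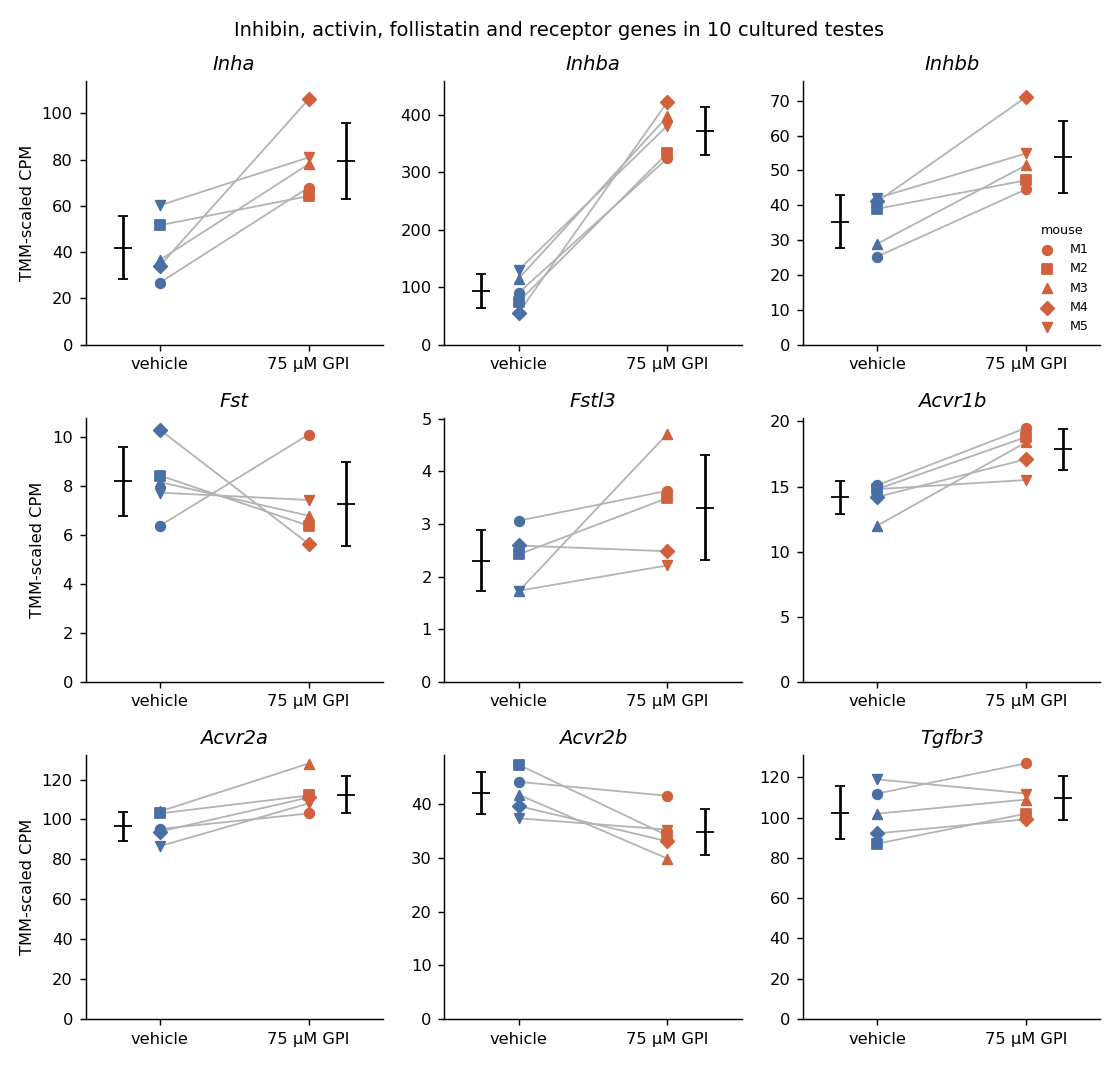
TMM-scaled CPM (vertical axis, from 0) of each of the 9 genes in the vehicle and GPI testis of 5 mice. Lines join the testes of a mouse, and the bars at the sides are mean ± SD (n = 5). The GPI points of Inhba, from 324 to 422 CPM, all lie above the vehicle points, from 55.6 to 130 CPM.

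Inhba, which encodes the βA subunit of activin A, showed the widest separation. It stood at 90.3, 74.7, 115, 55.6 and 130 CPM in the vehicle testes of M1 to M5, and at 324, 333, 397, 422 and 381 CPM in their GPI partners. The lowest GPI library held more than the highest vehicle library, and the mouse with the lowest vehicle value, M4, had the highest GPI value. The log2 fold change was 2.04 (SE 0.15, 95% interval 1.72 to 2.37, edgeR adjusted p = 4.94e-07), higher in 5 of 5 mice. Among the 13941 tested genes this increase ranked 45th. Without M1 it was 2.08 (SE 0.16, edgeR adjusted p = 4.03e-07). Between mice, the log2 ratio of GPI to vehicle ran from 1.55 in M5 to 2.92 in M4.

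Inha, the α subunit that turns a β subunit into inhibin, stood at 26.8, 51.6, 36.6, 34.1 and 60.2 CPM in the vehicle testes of M1 to M5. Their GPI partners held 67.9, 64.2, 78.0, 106 and 80.9 CPM. The groups did not overlap, although the lowest GPI value, in M2, was close to the highest vehicle value, in M5. The fitted increase was 1.94-fold, a log2 fold change of 0.95 (SE 0.16, 95% interval 0.60 to 1.31, edgeR adjusted p = 7.75e-04), and 0.84 without M1 (SE 0.17, edgeR adjusted p = 0.00213). The log2 ratio was 0.31 in M2 and 0.43 in M5, the mice with the highest vehicle values, and between 1.09 and 1.64 in the other 3 mice.

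Inhbb, the βB subunit made by Sertoli cells in the fetal testis, stood at 25.3, 39.0, 29.0, 41.1 and 42.1 CPM with vehicle in M1 to M5 and at 44.6, 47.2, 51.5, 71.1 and 54.9 CPM with GPI. M4 again had the highest GPI value, and the groups lay next to each other without overlap. The fitted increase was 1.53-fold, a log2 fold change of 0.62 (SE 0.11, 95% interval 0.38 to 0.85, edgeR adjusted p = 8.30e-04), with 5 of 5 mice higher, and 0.55 without M1 (SE 0.12, edgeR adjusted p = 0.00293). Inha, Inhba and Inhbb were called higher in each of 12 alternative analyses. The intervals of Inhba and Inhbb did not overlap, and the difference between the fold changes of these genes was not tested.

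**Figure D2:**
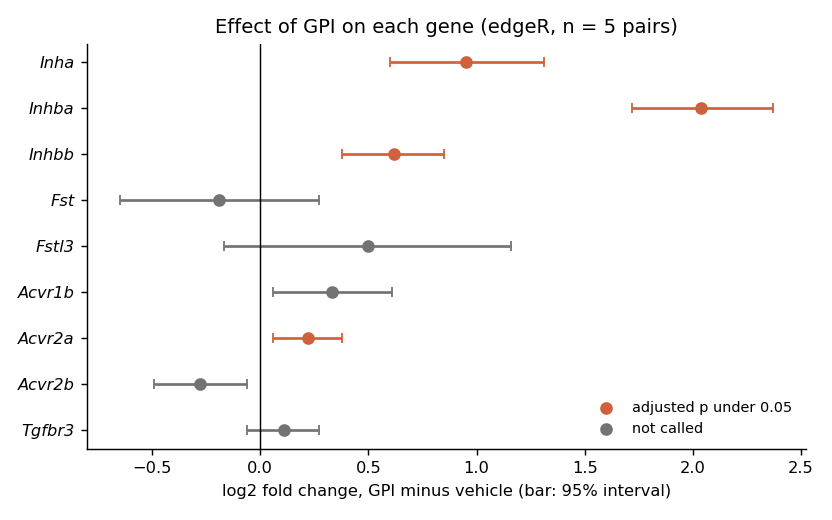
Log2 fold change of GPI against vehicle for each of the 9 genes (horizontal axis) with its 95% interval, from edgeR with 5 pairs. Orange points have an adjusted p under 0.05; the interval of Inhba, from 1.72 to 2.37, lies to the right of all others.

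The activin-binding antagonists gave no call. Fst stood at 6.38, 8.43, 8.16, 10.3 and 7.73 CPM with vehicle in M1 to M5 and at 10.1, 6.38, 6.79, 5.64 and 7.43 CPM with GPI. The values overlapped, and M1 differed from the rest: its GPI testis was the higher of the pair, while in the other 4 mice the GPI testis was the lower. The log2 difference was -0.19 (95% interval -0.65 to 0.27, edgeR adjusted p = 0.598), -0.41 without M1 (SE 0.21, edgeR adjusted p = 0.194) and -0.02 without M4 (edgeR adjusted p = 0.972). A decrease of the size of 0.64-fold and an increase of 1.21-fold both lie at the edges of the interval.

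Fstl3, a relative of follistatin, was the scarcest of the 9 genes, with 19 to 61 counts per library. Its mean was 2.30 ± 0.576 CPM with vehicle and 3.30 ± 0.999 CPM with GPI (SD, n = 5). The log2 difference was 0.50 with a wide interval (-0.17 to 1.16, edgeR adjusted p = 0.288), 0.55 without M1 (edgeR adjusted p = 0.333) and 0.25 without M3 (edgeR adjusted p = 0.699), the mouse with the largest log2 ratio, 1.40. The gene Prss57 lies across Fstl3 on the other strand and shares 1157 of its 2445 exon bases. Counting did not use strand, so reads of that stretch cannot be told apart, and whether any entered either count was not tested. Prss57 itself gave 0 to 3 counts.

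Among the receptors, Acvr2a, a type II receptor for activin, stood at 95.2, 103, 104, 93.9 and 86.6 CPM with vehicle in M1 to M5. The GPI partners held 103, 112, 128, 111 and 108 CPM. Every GPI testis was above its own partner, but the groups overlapped, since M1 with GPI lay at the level of M2 and M3 with vehicle. The log2 fold change was 0.22 (SE 0.07, 95% interval 0.06 to 0.38, edgeR adjusted p = 0.0458). This call was not kept in 10 of 12 alternatives: the adjusted p was 0.0675 without M1, 0.213 without M3, 0.132 without M4, 0.129 without M5, and 0.0561 in the unpaired edgeR fit. The gene Orc4 lies across Acvr2a on the other strand and shares 446 of its 5686 exon bases. Reads of that stretch cannot be told apart without strand, and whether any entered either count was not tested. Orc4 itself gave 1021 to 1821 counts. Its log2 fold change was also 0.22 (edgeR adjusted p = 0.0495), and it was called in 1 of 12 alternatives.

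Acvr2b, the other type II receptor, stood at 44.2, 47.4, 41.8, 39.7 and 37.4 CPM with vehicle in M1 to M5 and at 41.6, 34.2, 29.9, 33.1 and 35.3 CPM with GPI. Each GPI testis was below its partner and the groups overlapped, with M1 the highest of the GPI libraries. The log2 difference was -0.28 (95% interval -0.49 to -0.06, edgeR adjusted p = 0.0634) and did not pass the threshold. Without M1 it did, at -0.34 (SE 0.11, edgeR adjusted p = 0.0400), as it did with libraries scaled by total counts only (-0.33, edgeR adjusted p = 0.0367).

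The type I receptor Acvr1b stood at 14.2 ± 1.28 CPM with vehicle and 17.9 ± 1.60 CPM with GPI (SD, n = 5). All 5 GPI values, from 15.5 to 19.5 CPM, were above all 5 vehicle values, from 12.0 to 15.1 CPM. The log2 difference of 0.33 (95% interval 0.06 to 0.61, edgeR adjusted p = 0.0800) nevertheless missed the threshold, and was 0.30 without M1 (edgeR adjusted p = 0.172). The betaglycan gene Tgfbr3 ran from 87.1 to 119 CPM with vehicle and from 99.2 to 127 CPM with GPI. Its log2 difference was 0.11 (95% interval -0.06 to 0.27, edgeR adjusted p = 0.356), and 0.07 without M1 (edgeR adjusted p = 0.641).

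Levels of different genes were compared as CPM per kb of the longest transcript. With vehicle, Inha led at 28.4 ± 9.27 CPM per kb (SD, n = 5), followed by Acvr2a at 17.0 ± 1.27, Tgfbr3 at 16.8 ± 2.17, Inhba at 14.6 ± 4.67 and Acvr2b at 13.3 ± 1.22 CPM per kb. The values of each neighbour in that order overlapped. Inhbb came next at 8.29 ± 1.80 CPM per kb, with values that overlapped those of Inhba, and then Acvr1b at 3.21 ± 0.289, Fst at 2.80 ± 0.480 and Fstl3 at 1.18 ± 0.294 CPM per kb. These levels depend on the length used: with all exons as length, the vehicle mean of Fst was 1.79 and that of Acvr2b 10.7 CPM per kb. In vehicle testes the levels per length of both type II receptors and of the co-receptor thus overlapped that of βA.

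With GPI the order changed at the top. Inhba moved from the fourth place to the first, at 58.1 ± 6.56 CPM per kb, next to Inha at 53.9 ± 11.2 CPM per kb, whose values overlapped those of Inhba. Both lay above all values of Acvr2a (19.8 ± 1.62 CPM per kb), which overlapped Tgfbr3 (18.1 ± 1.80 CPM per kb). Inhbb, at 12.7 ± 2.45 CPM per kb, passed Acvr2b, at 11.0 ± 1.35, although their values overlapped. Acvr1b (4.04 ± 0.362), Fst (2.49 ± 0.584) and Fstl3 (1.69 ± 0.511 CPM per kb) kept the last 3 places. Among all tested genes with a length, Inhba went from the 73.6 to the 94.9 percentile of mean level per kb and Inha from the 86.6 to the 94.1 percentile.

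**Figure D3:**
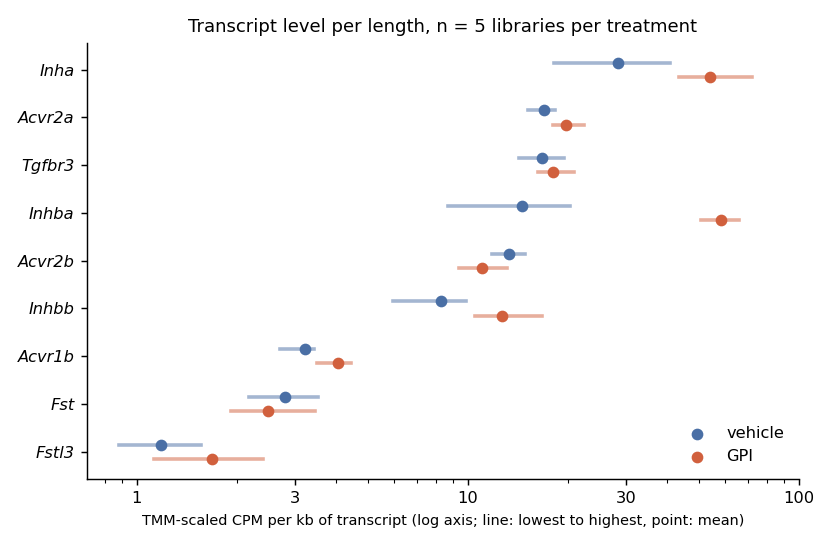
Level per length of the 9 genes, as TMM-scaled CPM per kb of the longest transcript on a log axis, ordered by the vehicle mean. Points are means and lines run from the lowest to the highest of 5 libraries; with GPI, Inhba (mean 58.1) stands beside Inha (mean 53.9).

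The balance between subunits was described per library from these levels per length, with no test. The ratio of β subunit transcripts (Inhba plus Inhbb) to the α subunit transcript was 1.11, 0.596, 1.0, 0.794 and 0.739 with vehicle in M1 to M5, and 1.33, 1.45, 1.40, 1.15 and 1.32 with GPI. It was higher with GPI in 5 of 5 mice and the groups did not overlap. The β pool itself shifted towards βA, whose share was 70.4, 56.0, 72.5, 47.4 and 67.2% with vehicle and 82.9, 82.4, 83.7, 79.8 and 82.2% with GPI. The vehicle shares were spread widely (SD 10.7%) and the GPI shares lay close together (SD 1.46%). Transcript ratios do not measure which dimers form.

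In contrast, the ratio of βB to α was 0.305 ± 0.0703 with vehicle and 0.236 ± 0.0113 with GPI (SD, n = 5), lower in 5 of 5 mice but with overlapping groups. The follistatins, as Fst plus Fstl3 over the β subunits, stood at 0.183 ± 0.0554 with vehicle and 0.0606 ± 0.0179 with GPI, without overlap and lower in every pair. Neither follistatin gene was called, while both β genes were. Acvr2b over Acvr2a was 0.781 ± 0.0475 with vehicle and 0.562 ± 0.109 with GPI, lower in 5 of 5 mice, and M1 with GPI (0.722) reached into the vehicle range.

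Other genes of the wider TGF-β superfamily pathway were read from 10 lists that together hold 92 genes. Of the 72 that were tested, 13 were called higher and 14 lower, larger shares than the 11.1% and 11.9% over all tested genes. Their median log2 fold change was 0.03, next to 0.02 over all genes. The number called higher was 7 without M3 and 8 without M4. The calls were thus split between both directions. Of the 27 called genes, 16 were also called with each mouse left out in turn and 11 were not; in what follows the highest edgeR adjusted p without 1 mouse is given for the latter. Further ligands of the activin and nodal branch were nearly absent: Inhbc, Gdf1 and Mstn were at 0 in all 10 libraries, and Inhbe, Nodal, Gdf3 and Gdf9 gave at most 23 counts. Gdf11, an activin-like ligand that uses the same type II receptors, rose from 7.33 ± 1.46 to 12.3 ± 0.847 CPM (log2 fold change 0.75, edgeR adjusted p = 0.00580).

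Of 7 tested modulators of activin and nodal signals, Lefty2 and Fstl1 fell and Wfikkn1 rose. Lefty2, a nodal antagonist, went from 7.18 ± 4.75 to 1.10 ± 0.354 CPM (log2 fold change -2.50, SE 0.41, edgeR adjusted p = 5.26e-04). Fstl1, a secreted follistatin-like glycoprotein, went from 477 ± 32.7 to 360 ± 32.7 CPM (log2 fold change -0.41, edgeR adjusted p = 2.48e-04). Wfikkn1, a binding protein for myostatin and Gdf11, gave only 7 to 29 counts per library (log2 fold change 1.22), and its call was lost without any 1 of the 5 mice (up to 0.0988, without M5).

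Among 10 other receptors of the family, Eng and Tgfbr2 fell and Tgfbr1 and Bmpr1a rose. The endothelial co-receptor Eng fell from 25.3 ± 1.71 to 7.83 ± 1.35 CPM (log2 fold change -1.70, edgeR adjusted p = 6.04e-07), and the type II TGF-β receptor Tgfbr2 from 55.8 ± 3.15 to 27.9 ± 4.43 CPM (log2 fold change -1.01, edgeR adjusted p = 8.80e-06). The type I receptor Tgfbr1 rose by a log2 fold change of 0.35 (edgeR adjusted p = 0.00355), and Bmpr1a by 0.24 (0.0833 without M3). The ligand Tgfb1 fell (log2 fold change -1.81, edgeR adjusted p = 6.16e-07). Of the proteins that hold TGF-β latent in the matrix, Ltbp4 fell (log2 fold change -1.20, edgeR adjusted p = 4.86e-07) and Ltbp1 rose (log2 fold change 0.86, edgeR adjusted p = 1.41e-05).

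Inside the cell, 2 of 8 SMAD genes were called. Smad2, which carries the activin signal, had a log2 fold change of 0.36 (edgeR adjusted p = 0.00684, and 0.0508 without M3), and Smad5, which carries BMP signals, had -0.36 (edgeR adjusted p = 9.24e-04). Of 11 tested regulators of SMADs, Nedd4l, a ubiquitin ligase, fell by 0.82 on the log2 scale (edgeR adjusted p = 8.11e-06). Ski (-0.36, up to 0.0618 without M4), Smurf2 (-0.22, 0.125 without M4) and Ppm1a (0.27, 0.173 without M3) were called with all 5 mice but not in each smaller set. Tgif2 (0.33, 0.109 without M1) lost its call without any 1 of the 5 mice and in the unpaired fit (0.0719). Among 6 tested response genes of SMADs 2 were lower and 0 higher (0 at an unadjusted p under 0.05, and 0 with DESeq2 or limma-voom). Pmepa1, induced by SMAD3 and a brake on it, fell from 186 ± 15.6 to 119 ± 15.8 CPM (log2 fold change -0.64, edgeR adjusted p = 1.41e-04), and Id4 had -0.51 (edgeR adjusted p = 0.0459, up to 0.181 without M3, and 0.0839 in the unpaired fit).

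BMP genes and gonadal regulators gave calls in both directions. Bmper (0.64, edgeR adjusted p up to 0.167, without M4) lost its call without M3, M4 or M5, with DESeq2 and with total counts only. Gdf10 (-0.89, edgeR adjusted p up to 0.0763, without M1) lost its call without M1, M4 or M5. Bmp2 (0.61) lost its call without M4 (edgeR adjusted p = 0.0539) and in the unpaired edgeR fit (0.0574). Of 10 transcription factors and signals known to act on subunit or follistatin genes in gonads, Nr5a1, which activates steroid and inhibin genes, rose from 21.2 ± 4.92 to 45.2 ± 5.70 CPM (log2 fold change 1.11, edgeR adjusted p = 1.35e-05). Gata4, a partner of NR5A1, had a log2 fold change of 0.53 (edgeR adjusted p = 8.45e-04). Wnt4, an ovarian signal upstream of Fst, fell from 84.8 ± 13.9 to 49.7 ± 10.7 CPM (log2 fold change -0.78, edgeR adjusted p = 1.57e-04). Nr5a1 also stands among the Leydig markers described next, and Wnt4 and Bmp2 among those of pre-granulosa cells.

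**Figure D4:**
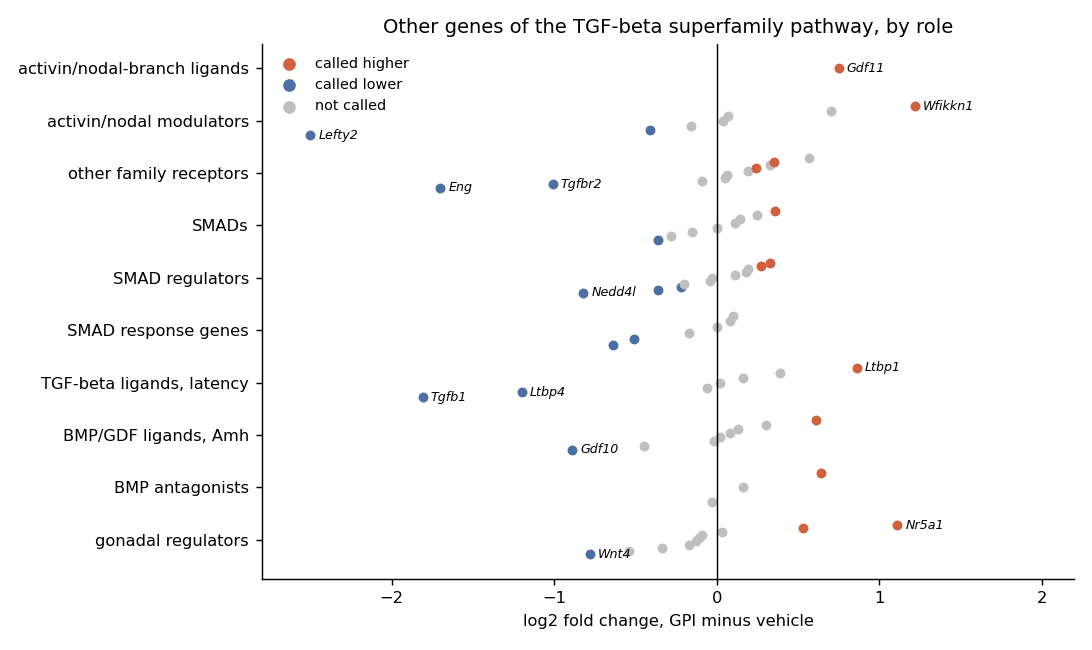
Log2 fold change (GPI against vehicle, horizontal axis) of 71 tested pathway genes, 1 point each, by role. Orange points were called higher (12), blue lower (14) and grey not called; called genes beyond 0.7 in either direction are named.

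The cell types that make these transcripts also moved with treatment. All 7 tested fetal Leydig markers of 8 were called higher. Their summed level was 123, 263, 362, 188 and 484 CPM with vehicle in M1 to M5 and 869, 915, 1400.1, 1593 and 1176 CPM with GPI, 4.19-fold higher on average and without overlap. Hsd3b1 was the most abundant with vehicle (139 CPM, against 73.4 CPM for Cyp11a1). With GPI it was Cyp11a1 (476 CPM, against 428 CPM for Hsd3b1). By fold, Cyp17a1, the enzyme that makes androgen precursors, rose most of the named ones, from 9.07 ± 6.68 to 131 ± 60.6 CPM. The part of Leydig transcripts in the increase of Inhba was not tested. In bulk RNA, more cells of a type and more RNA per cell cannot be told apart, and neither can fewer cells and less RNA.

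**Figure D5:**
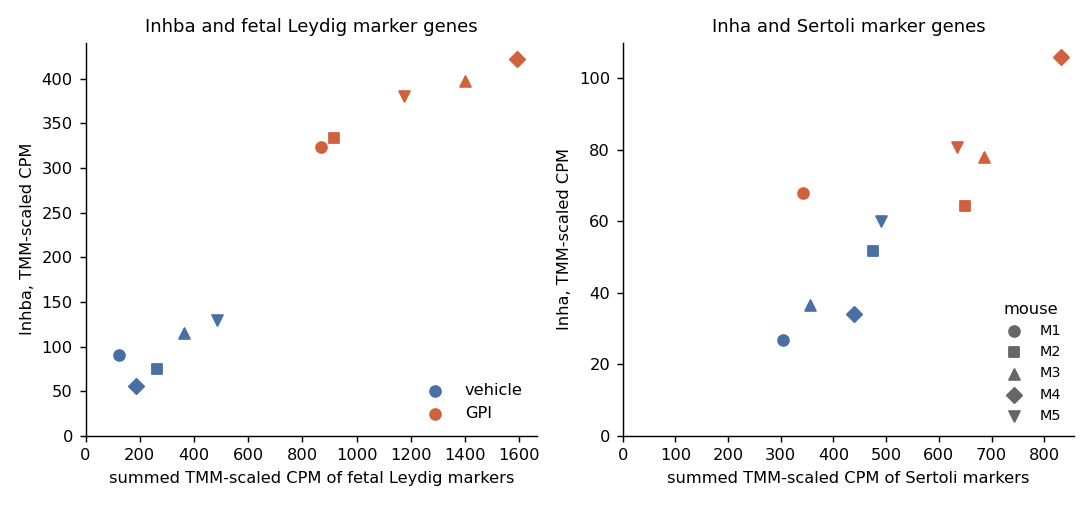
Left, Inhba against the summed level of fetal Leydig markers; right, Inha against that of Sertoli markers, all as TMM-scaled CPM on axes from 0. Each point is a library, blue for vehicle and orange for GPI, with a symbol for each mouse. On the left the groups separate on both axes; on the right M1 with GPI (343 CPM of Sertoli markers) lies among the vehicle libraries on the horizontal axis.

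Sertoli markers, of cells that make Inha and Inhbb, were called higher in 8 of 12, in 5 without M3 and in 6 in the unpaired fit. They summed to 305, 475, 356, 439 and 491 CPM with vehicle and to 343, 650, 685, 831 and 635 CPM with GPI in M1 to M5. The groups overlapped through M1 with GPI. Aard had the highest mean of these markers with vehicle (137 CPM) and with GPI (210 CPM). In M1 it stood at 91.3 CPM with vehicle and 83.1 CPM with GPI. In that mouse 7 of the 12 markers were higher with GPI, among them Sox9 (91.0 and 121 CPM). Sox8 (log2 fold change 1.43, edgeR adjusted p = 2.66e-05) and Mro (0.89, edgeR adjusted p = 1.01e-04) had the smallest p among the called markers, with Sox9 (0.59, edgeR adjusted p = 4.08e-04). The part of Sertoli or of Leydig transcripts in the changes of Inha and Inhbb was not tested.

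Markers of other cell types were lower. All 10 endothelial markers were lower, and their sum went from 816, 825, 800, 903 and 828 CPM with vehicle to 98.3, 116, 77.4, 60.5 and 70.1 CPM with GPI in M1 to M5. Cdh5 was the most abundant of them with vehicle (229 CPM) but not with GPI (18.9 CPM). All 7 tested germ cell markers of 10 were lower. Their sum was 101, 200, 136, 167 and 65.4 CPM with vehicle and 14.2, 9.74, 3.40, 4.18 and 14.2 CPM with GPI. Dazl was the most abundant of them with vehicle (47.1 CPM) but not with GPI (2.04 CPM). Lefty2, Eng, Tgfbr2, Tgfb1 and Ltbp4 fell in the same libraries, and the part of the lost germ and endothelial transcripts in those results was not tested. Macrophage markers were lower in 6 of 7 tested, with sums of 73.4, 47.7, 58.6, 52.1 and 55.5 CPM against 33.0, 28.2, 27.7, 15.8 and 17.7 CPM. Ptprc was the most abundant of them with vehicle (13.8 CPM) and Cd68 with GPI (7.33 CPM). Erythroid markers were lower in 5 of 5 tested, with sums of 135, 176, 331, 303 and 257 CPM against 110, 65.8, 61.3, 67.3 and 155 CPM and Hbb-y the most abundant.

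Supporting cells of the ovarian kind and stromal cells changed less in sum. Pre-granulosa markers summed to 166, 164, 161, 142 and 132 CPM with vehicle and to 127, 118, 121, 89.0 and 122 CPM with GPI, with Wnt4 the most abundant; of 6 tested, Wnt4 and Lef1 were lower and Bmp2 higher. Interstitial markers summed to between 1479.7 and 1805 CPM with vehicle and between 1455 and 1824 CPM with GPI, with 1 of 8 higher (Pdgfra, the most abundant) and 4 lower; the number lower was 1 without M2, 0 without M3, 0 without M4 and 2 in the unpaired fit. Smooth muscle and pericyte markers ran from 190 to 248 CPM with vehicle and from 123 to 181 CPM with GPI; of 5 tested, the pericyte gene Rgs5 was lower (log2 fold change -4.32, edgeR adjusted p = 1.83e-07), and Acta2, the most abundant, was not called. The part of these lists in the results on the 9 genes was not tested.

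The gonad's surface and its neighbours were also read. Mesonephros markers summed to 85.7 to 137 CPM with vehicle, highest in M1, and to 58.8 to 86.9 CPM with GPI; most of it was Emx2, a gene also expressed in the gonad, which was lower in 1 call of 3 tested genes. Markers of the coelomic epithelium, led by Lhx9, gave 0 calls in 5 tested (1 higher at an unadjusted p under 0.05, and 0 calls with DESeq2 or limma-voom). Without M1, 1 of them was called higher. They summed to 193 to 263 CPM with vehicle and 235 to 269 CPM with GPI. Adrenal cortex markers, led by Mc2r, gave 0 calls in 2 tested (0 at an unadjusted p under 0.05, and 0 with DESeq2 or limma-voom) and at most 9.72 CPM in sum, and Cyp21a1, the adrenal steroid enzyme, was at 0 in all libraries.

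The genes whose profile over the 10 libraries was most like that of each called gene were found among 11105 tested genes whose mean count reached 50. Likeness was the root mean square difference of log2 levels centred on each gene's mean. Nearest to Inhba was Col25a1, a membrane collagen, at 0.16, then Gcnt4 at 0.28 and Fam13a at 0.30. Nearest to Inha were Epdr1, Scarb1 (the receptor for HDL cholesterol) and Plxnc1, each at 0.18. Inhbb had Akr1b8 and Sin3b at 0.10 and Clic5 at 0.11. Acvr2a had Zfp62, Washc5 and its overlapping neighbour Orc4, each at 0.05.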

How the data were processed

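RNA of 10 cultured testes, 1 library each, was analysed. The authors deposited raw counts per gene entry; the submitters' processing notes name STAR 2.5 and featureCounts (Subread 1.5.0-p1) with mm10, and the study's methods give a count without strand for these libraries. Libraries were amplified and carry no molecular identifiers, so error was taken from how the difference between partners varied across mice. Between libraries of a treatment, the chi-square statistic of the counts was 6.42 to 27.8 times its degrees of freedom, so none was a duplicate.

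Counts were filtered with filterByExpr (minimum count 10, minimum total 15), TMM-scaled and tested with edgeR's quasi-likelihood test on mouse and treatment, with Benjamini-Hochberg adjustment at 0.05. The labels give the same animal for both testes of a pair, which sets the pairing; deviations from the treatment mean correlated at 0.06 on average within mice and -0.015 between mice. Standard errors are the log2 fold change over the root of the F statistic. Ratios in single mice used a pseudocount of 0.1 CPM. Lengths are those of the longest GENCODE M21 transcript.

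The genes and lists were chosen with earlier results of these data known. Named were the 9 genes, in each pathway list the up to 3 called genes with the smallest p, and the 3 most alike genes. In each marker list the most abundant gene over both treatments together and those at 0 were also named. Bmpr1a, Tgif2 and Ppm1a were named to complete counts, and Amh, Insl3, Foxl2, Pax8 and Cdh16 to check the tissue, after their values were seen. 1 called pathway gene is counted but not reported here.

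Alternatives were DESeq2, limma-voom, an unpaired fit, DESeq2 size factors, total counts, no filter, at least 10 counts in every library, all exons as length, and each mouse left out. The fit was also run on simulated counts, which held no differences between mice and so do not test the pairing. Fits used edgeR 4.0.16, DESeq2 1.42.0 and limma 3.58.1 in R 4.3.3; tables and plots used pandas 2.3.3, matplotlib 3.10.9 and numpy 2.4.6 in Python 3.11.15.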

Additional observations from a re-analysis of the deposited data

Results flagged for a closer look

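In 4 of 54 groups of 5 libraries, 1 library lay far from the other 4; chance does this in about 1 in 20 groups. With vehicle, Acvr1b was lowest in M3 at 12.0 CPM, while the others held 14.2 to 15.1 CPM. With GPI, the ratio of βB to α was highest in M2 at 0.255, with the others between 0.228 and 0.235. The summed level of pre-granulosa markers with GPI was lowest in M4 at 89.0 CPM, against 118 to 127 CPM in the others. The summed level of endothelial markers with vehicle was highest in M4 at 903 CPM, against 800 to 828 CPM in the others.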

How the results depend on the processing

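Inha, Inhba and Inhbb were called higher in all 12 alternatives, with log2 fold changes of 0.78 to 1.12, 1.83 to 2.17 and 0.55 to 0.70; Fst (-0.41 to -0.02), Fstl3 (0.25 to 0.64), Acvr1b (0.24 to 0.40) and Tgfbr3 (0.06 to 0.15) were called in 0 of 12. Acvr2a lost its call with DESeq2 (0.21, adjusted p 0.0648), with no replicate block (0.22, 0.0561), with DESeq2 size factors (0.21, 0.0545), with total counts only (0.17, 0.119), with no low-count filter (0.21, 0.0767) and with at least 10 counts in every library (0.21, 0.0545), and ran from 0.18 to 0.24 with a mouse left out. Without the replicate block 3108 genes were called, and Acvr2a was the only 1 of the 9 genes whose call changed. Acvr2b passed the threshold with total counts only (-0.33, 0.0367) and ran from -0.34 to -0.23 with a mouse left out; the number of the 9 genes called lower was then 1 with total counts and 0 to 1 with a mouse left out. With fewer mice, genes called higher numbered 969 to 1430 over the table and 7 to 13 in the pathway lists. With at least 10 counts in every library, a filter that drops genes that fell, 2 germ cell markers were called lower in place of 7. For these changes of calls the cause was not tested.

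With all exons as length, the level of Fst was 1.79 (vehicle) and 1.58 (GPI) CPM per kb, that of Acvr2b 10.7 and 8.87, the follistatin to β ratio 0.125 and 0.0425, and Acvr2b over Acvr2a 0.631 with vehicle; longer lengths lower these values by construction. Of 69 other named genes, 68 kept their direction in every alternative and 50 their call. Lhx9, not called, turned from 0.03 to -0.02 with total counts only and ran from -0.07 (without M5) to 0.09 with a mouse left out. Fstl3, with 19 to 61 counts, and Fst, with 66 to 127, are measured least precisely, and 5 pairs from whole testes do not show which cells carry a transcript.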
